A study of Mus musculus with 16 samples.

Results

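The response of mouse pre-B cells to 5 h of stimulation was described gene by gene, as the ratio of 1 RNA-seq library made after 5 h to 1 library of control cells. The cells came from Blnk-/- mice, so they lacked the adaptor protein BLNK, and they had received a retrovirus that expresses BLNK-ERt2, a fusion of BLNK to an oestrogen receptor domain that tamoxifen switches on. Control and stimulated cells shared this genotype and this construct, and differed by the 5 h of stimulation. The submitters state that the aim was to find genes regulated after preBCR signalling. The comparison used 8 of the 16 samples of the series: 4 sequencing lanes of the control and 4 of the 5 h cells, each set with 1 index sequence, summed to 1 library a side. The other 8 samples are lanes of cells stimulated for 0.5 and 1.5 h. Of 38918 listed features, 9520 had at least 5 CPM in either library and could be called, and 11016 had at least 1 CPM in either library and count as measured. CPM is the number of total exon reads of a feature per 1000000 total exon reads of the library. No label says what the control cells received in place of the inducer, which of 2 kits was used for each library, how old or how many the mice were, or whether the cells of a library came from 1 culture. A difference between these libraries cannot be told apart from a difference between the samples they were made from.

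Pre-B cells, a stage of B lymphocyte development, carry an immunoglobulin heavy chain and no conventional light chain yet. The heavy chain pairs with the surrogate light chain, encoded by Vpreb1 and Igll1, and with the signalling chains CD79A and CD79B to form the preBCR. BLNK is phosphorylated by the kinase SYK and brings phospholipase C gamma and BTK together below the receptor. Signals through BLNK are known to end the IL-7-driven proliferation of pre-B cells and to open the light chain loci for rearrangement, and pre-B cells without BLNK are known for prolonged proliferation and a raised preBCR level.

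The control library held 34533362 total exon reads and the 5 h library 30746189, with lanes between 7631791 and 8709054. Unique placement was found for 84.0% of the control reads and 84.6% of the 5 h reads, and the share of unique gene reads that lay outside exons was 13.0 and 14.6%. A single library per condition gives no spread between replicates, and p-values are therefore left out. The 95% intervals of ratios (exact Clopper-Pearson, from the split of the reads between both libraries) cover counting error only, as does the limit that a count of 0 allows, 0.0869 CPM in the control and 0.0976 CPM in the 5 h library. Lanes of the same library differed by more than sampling noise in total exon reads, with a chi-square of 1.24 to 1.32 per degree of freedom, and by no more than that in unique exon reads, with 0.992 to 1.01. Blnk itself was at 3516 CPM in the control and 3533 CPM in the 5 h library, and reads of the construct cannot be told from those of the endogenous gene. Markers of pre-B cells were abundant in both libraries. Pax5, a transcription factor of B cell identity, was at 290 and 396 CPM in the control and the 5 h library. Rag1, the recombinase, was low at 6.63 and 4.68 CPM. The T cell gene Cd3e had 0 control reads and 1 at 5 h, the natural killer gene Ncr1 had 0 in both, and so did the stromal gene Dcn. Other members of these marker lists had reads, and their summed levels are given below.

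Most genes differed little between the libraries. The log2 ratio of 5 h over control was taken after adding 1 CPM to both levels. Over the 9520 features its median was 0.0026, with quartiles at -0.17 and 0.17, and 68.8% of features lay within 1.2-fold. A feature was called when this ratio reached 2-fold, that is 1 on the log2 scale, and the higher level was at least 5 CPM. By this rule 32 features rose (0.336% of those tested) and 38 fell (0.399%), in all 0.735%. The plot of ratios by level shows the called genes across the range of abundance. In these counts the higher genes stood at a median of 39.1 CPM in the control library and 95.3 CPM at 5 h, and the lower genes at 23.2 and 10.2 CPM. In each of the 70 called genes the 4 control lanes lay wholly on one side of the 4 lanes at 5 h, but lanes repeat the counting and not the experiment. Features with lanes apart were not counted over all 9520, and some genes that were not called had lanes apart too.

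**Figure D1:**
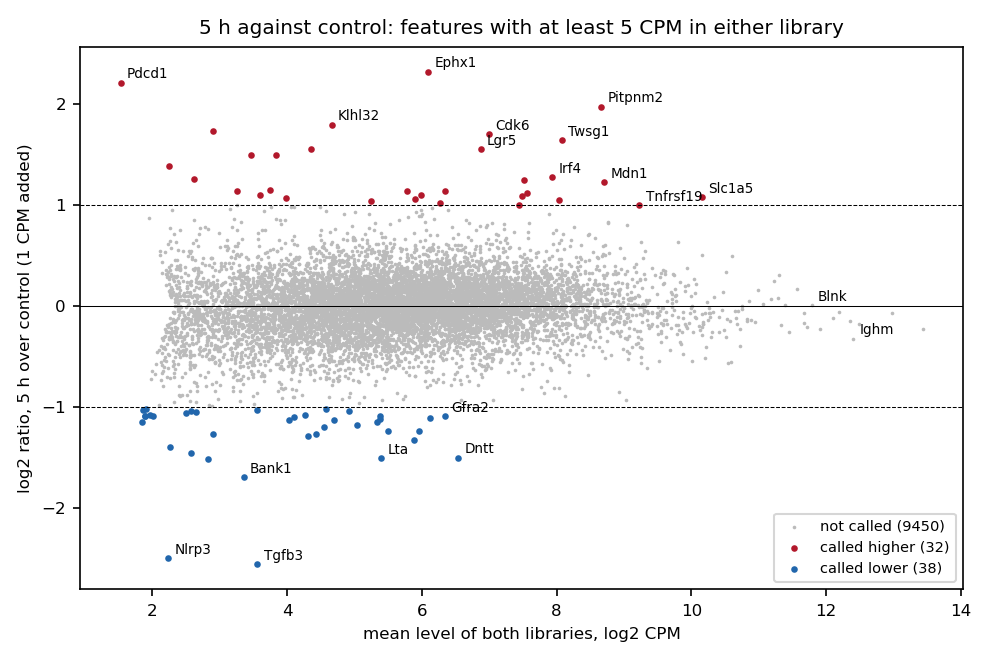
Log2 ratio of 5 h over control, with 1 CPM added, against the mean level of both libraries in log2 CPM, for the 9520 features with at least 5 CPM in either library. Grey points are features not called, red points are the 32 higher and blue points the 38 lower genes, and dashed lines mark the 2-fold limits; the mass of points lies around 0 and Blnk and Ighm lie among it.

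Genes of membrane receptors and transporters were among those that rose. Lgr5 (chromosome 10, 115450311 to 115587780, mm10), a receptor for R-spondins that strengthens Wnt signalling, was at 59.0 CPM in the control library and 175 CPM at 5 h. Its control lanes ran from 56.8 to 61.3 CPM and its 5 h lanes from 170 to 181 CPM, and it was 2.97-fold higher (2.82 to 3.13). Tnfrsf19 (chromosome 14, 60963834 to 61046855), a receptor of the TNF receptor family, went from 399 to 800 CPM, 2.0-fold higher (1.96 to 2.05). Its log2 ratio of 1.0 lay at the limit, and the call ended in 5 alternative settings, among them unique exon reads with 0.99 and the sum without lane 2 with 0.99. Itgav (chromosome 2, 83724397 to 83806916), the integrin alpha V chain, went from 40.1 to 87.0 CPM, 2.17-fold higher (2.03 to 2.32). These 3 genes encode proteins of the cell surface.

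Slc1a5 (chromosome 7, 16781346 to 16798274), a neutral amino acid transporter that carries glutamine, had the highest level of the 32 per length. It stood at 176 RPKM (reads per 1000 bases of exon and 1000000 exon reads) in the control library and 372 RPKM at 5 h. In CPM it went from 732 to 1547, with control lanes from 717 to 752 and 5 h lanes from 1527 to 1559, and was 2.11-fold higher (2.08 to 2.14). Irs1 (chromosome 1, 82233101 to 82291416), the docking protein of the insulin and IGF1 receptors, went from 169 to 353 CPM, 2.08-fold higher (2.02 to 2.15). Ephx1, the epoxide hydrolase with the largest rise among genes above 10 CPM in both libraries, had control lanes from 21.5 to 22.9 CPM and 5 h lanes from 110 to 120 CPM. Pdcd1, the gene of the inhibitory receptor PD-1, had 13 control reads and 166 at 5 h. Its level at 5 h, 5.40 CPM, was just above the floor of the rule, and with 5 CPM added in place of 1 its log2 ratio of 2.22 became 0.95, which ends the call, as did total gene reads, where it was under the floor.

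Among genes of transcription and the cell cycle, Irf4 rose from 142 to 347 CPM and Cdk6 from 59.6 to 196 CPM, and the lanes of the libraries did not overlap in either. IRF4 is a transcription factor of light chain rearrangement and CDK6 a kinase of D-type cyclins. Hivep2 (chromosome 10, 13966379 to 14151376), a zinc finger protein that binds enhancers, went from 119 to 259 CPM, 2.18-fold higher (2.10 to 2.27). Zfp771, a zinc finger gene, went from 7.04 to 21.7 CPM, 3.08-fold higher (2.65 to 3.58), a call that ended in total gene reads with a log2 ratio of 0.93. Ikzf3, the factor Aiolos, lay at the limit at 2.02-fold, and its call ended in 5 settings, among them unique exon reads (0.997). Twsg1, a secreted modulator of BMP signalling, went from 130 to 409 CPM.

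Genes that act on RNA and ribosomes were also called higher. Mdn1 (chromosome 4, 32657119 to 32775217), the AAA ATPase midasin that remodels precursors of the large ribosomal subunit, went from 249 to 585 CPM, with control lanes from 246 to 254 and 5 h lanes from 578 to 598. It was 2.35-fold higher (2.29 to 2.41). Pus7, a pseudouridine synthase, went from 50.5 to 104 CPM, 2.05-fold higher (1.94 to 2.18), and its call ended with 5 CPM added (0.97) and in total gene reads (0.99). Igf2bp3, an RNA-binding protein of fetal tissues and of fetal B cell development, went from 9.85 to 21.8 CPM, 2.22-fold higher (1.94 to 2.53). Its call ended with 5 CPM added (0.85), in unique exon reads (0.99) and in total gene reads (0.85). Ndufaf4, an assembly factor of mitochondrial complex I, went from 33.9 to 75.8 CPM, 2.24-fold higher (2.08 to 2.40).

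Further genes that rose had roles in signalling, the cytoskeleton and the cilium. Pitpnm2, a phosphatidylinositol transfer protein, had control lanes from 157 to 170 CPM and 5 h lanes from 632 to 656 CPM. Klhl32 (chromosome 4, 24612554 to 24851124), a protein of the Kelch family, went from 10.7 to 39.9 CPM, 3.71-fold higher (3.30 to 4.18). Tmtc1, an enzyme of protein O-mannosylation, went from 9.93 to 31.1 CPM, 3.13-fold higher (2.77 to 3.56). None of these 3 genes had overlapping lanes. Rpgrip1, a protein of the photoreceptor cilium, went from 108 to 257 CPM, and Ankrd28, a subunit of protein phosphatase 6, from 114 to 243 CPM. Rilpl2, an effector of Rab proteins phosphorylated by LRRK2, went from 50.2 to 112 CPM and Arhgef33, a predicted guanine nucleotide exchange factor, from 38.2 to 80.9 CPM. Ppfia4, a liprin, and Map2, a microtubule-associated protein of neurons, stayed low, at 9.04 and 13.5 CPM at 5 h. The calls of Arhgef33 (0.99), Ppfia4 (0.78) and Map2 (0.81) ended with 5 CPM added, that of Arhgef33 also in total gene reads (0.95), and that of Map2 also without lane 4 (0.99). The plot of lane values shows the gap between the lanes of each library for 8 of the higher and 8 of the lower genes.

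**Figure D2:**
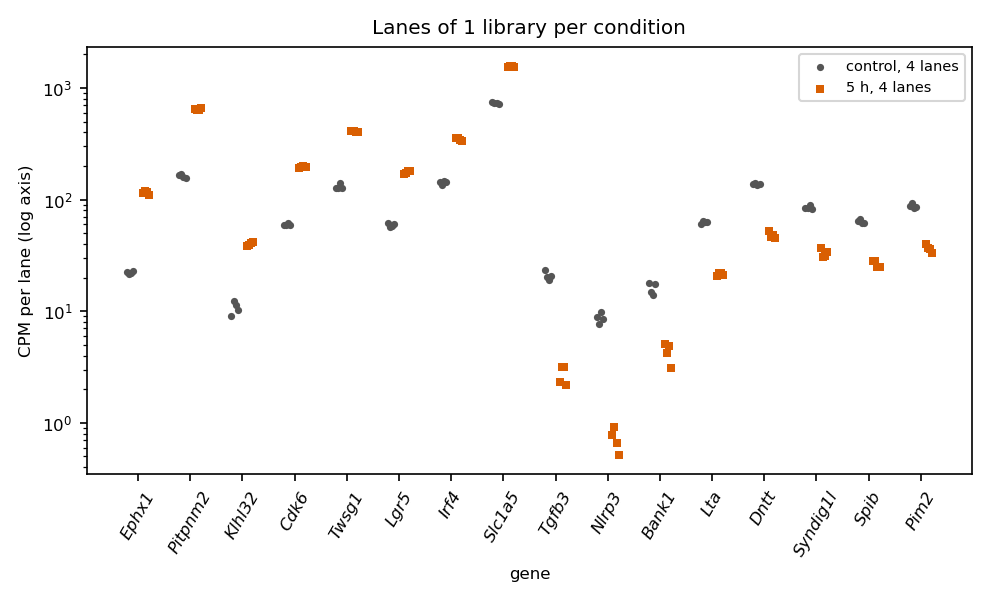
CPM in each of the 4 lanes of the control library (grey circles) and of the 5 h library (orange squares), on a log axis, for 8 genes called higher and 8 called lower. Each point is 1 lane, lanes of a library lie close together, and the lanes of both libraries do not overlap in any of the 16 genes.

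For some called genes few reads were uniquely placed, so that their counts depend on how reads were shared among similar sequences. Fewer than 50% of reads were unique in 5 of the 32 higher and 3 of the 38 lower genes. Hist1h2ap, a replication-dependent histone gene with near-identical copies, went from 2.92 to 12.1 CPM with 31.8% of its reads unique. Tsix, the antisense transcript of Xist, went from 5.27 to 16.8 CPM with 4.88% unique. Its 4 lanes at 5 h spread from 7.86 to 26.5 CPM and its control lanes from 2.31 to 7.09 CPM, and in unique reads its log2 ratio of 1.50 became 0.39, which ends the call. Xist stood at 2250 and 2794 CPM, and no source used here gives the strand on which reads were counted. The calls of Zbtb9 (log2 ratio 0.66 in unique reads), Ttbk2 (0.98) and Zfp322a (0.87) also ended in unique reads and with 5 CPM added. In unique exon reads alone 25 of the 32 higher and 33 of the 38 lower genes were still called, where 0.302 and 0.377% of tested features were called higher and lower, and each of the 70 kept its direction.

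Secreted factors and ligands were among the genes that fell. Tgfb3, a TGF-beta ligand, went from 20.8 CPM, with lanes from 19.2 to 23.4, to 2.70 CPM, with lanes from 2.19 to 3.14. Lta, which encodes lymphotoxin alpha, had control lanes from 61.0 to 63.7 CPM and 5 h lanes from 20.5 to 22.0 CPM. Pgf, a growth factor of the VEGF family, went from 11 to 3.97 CPM and was 2.77-fold lower (2.25 to 3.42). Sema4a (chromosome 3, 88435959 to 88461182), a semaphorin of the cell membrane, went from 9.18 to 2.70 CPM and was 3.40-fold lower (2.66 to 4.38). The calls of Pgf (-0.83) and Sema4a (-0.88) ended with 5 CPM added.

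Single genes of receptors and adhesion proteins fell too, while Lgr5, Tnfrsf19 and Itgav rose. Gfra2 (chromosome 14, 70890130 to 70979838), a receptor of the neurotrophic factor neurturin, went from 111 to 51.6 CPM, with control lanes from 104 to 118 and 5 h lanes from 50.3 to 52.9. It was 2.15-fold lower (2.03 to 2.28). Cd248, the membrane protein endosialin, went from 36.1 to 16.0 CPM and was 2.26-fold lower (2.03 to 2.51), and Plxdc1, a plexin domain protein, went from 57.3 to 25.8 CPM and was 2.22-fold lower (2.04 to 2.41). The call of Cd248 ended with 5 CPM added (-0.97) and that of Plxdc1 in total gene reads (-0.95). Itgax, the integrin CD11c of dendritic cells, went from 5.39 to 2.15 CPM, and its call ended in 4 settings, among them unique exon reads (-0.97). Bst1, an ectoenzyme of early B cells, went from 32.3 to 15.4 CPM, and its call too ended in 4 settings.

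Some genes best known from neurons or from vesicle traffic also fell; they are placed together here after their values were seen, and Map2 and Ppfia4, of the same kind, rose. Syndig1l (chromosome 12, 84677278 to 84698807), a membrane protein related to a regulator of synapses, went from 84.7 to 33.0 CPM and was 2.56-fold lower (2.39 to 2.76). Sytl1, a Rab27 effector of secretion, went from 28.7 to 11.2 CPM and was 2.57-fold lower (2.27 to 2.91). Nrxn2, the cell adhesion protein neurexin 2, went from 7.38 to 2.18 CPM and was 3.39-fold lower (2.58 to 4.50). In Syndig1l and Sytl1 the call held in all 12 alternatives tried for single genes. Kif17, a kinesin motor, went from 55.9 to 24.6 CPM, and Cplx2, a complexin that binds the vesicle fusion machinery, from 26.5 to 12 CPM. Tubb3, a neuronal beta tubulin, and Scn11a, a sodium channel, were low, at 5.85 and 5.44 CPM in the control library. The calls of Nrxn2 (-0.79), Cplx2 (-0.89), Tubb3 (-0.59) and Scn11a (-0.57) ended with 5 CPM added, that of Kif17 in total gene reads (-0.87), that of Tubb3 also in total gene reads, where its level was under the floor, that of Cplx2 without lane 4 (-0.99) and that of Scn11a without lane 1 (-0.997).

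The remaining genes that fell included transcription factors, signalling proteins and enzymes. Spib, an Ets-family factor, had control lanes from 61.6 to 67.6 CPM and 5 h lanes from 24.9 to 28.2 CPM. Lyl1, a basic helix-loop-helix factor of early progenitors, went from 33.0 to 13.9 CPM, but 18.7% of its reads were unique and its log2 ratio of -1.2 became -0.80 in unique reads, which ends the call. Zcchc24, a zinc finger gene, went from 45.8 to 19.6 CPM, a call that ended in total gene reads (-0.88). Bank1, a B cell scaffold, went from 16.2 to 4.29 CPM and Trib3, a pseudokinase, from 22.7 to 9.82 CPM. The call of Bank1 held in all 12 alternatives and that of Trib3 ended with 5 CPM added (-0.90).

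Fgd2, an exchange factor of CDC42 found in antigen-presenting cells, went from 5.33 to 1.85 CPM, and B3gnt8, a glycosyltransferase, from 23.7 to 10.5 CPM. Padi2, a peptidylarginine deiminase, went from 30.8 to 12.2 CPM with 11.5% of reads unique, and its log2 ratio in unique reads was -0.43. Slc14a1, a urea transporter, Acsf2, an acyl-CoA synthetase, and Mybpc2, a myosin-binding protein, were 2.12-, 2.36- and 2.70-fold lower. Acsf2 lost its call in 5 settings, Slc14a1 in 3 and Mybpc2 in 2. The variable segment Igkv14-111 of the kappa light chain locus went from 8.02 to 3.32 CPM, and its call ended with 5 CPM added (-0.65) and without lane 3 (-0.999). The calls of Fgd2 (-0.59) and B3gnt8 (-0.89) ended with 5 CPM added. The other genes called lower were Klf10, a zinc finger factor, Gbp11, a guanylate-binding protein with 28.2% of reads unique, Ccdc135, a coiled-coil protein, and the gene model 1110007C09Rik, and the predicted gene Gm11696 was called higher. Gbp11, 1110007C09Rik and Gm11696 were named after their values were seen. The call ended in 2 settings each for Klf10, Gbp11, Ccdc135 and Gm11696, for Gbp11 in unique exon reads among them, and in 4 for 1110007C09Rik.

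Gene lists of pathways and cell types are described next by their counts and medians, beside a median of -0.0046 over the 11016 measured features and the 0.735% of tested features that were called. Members under 5 CPM in both libraries could not be called, so calls in a list can be out of fewer genes than were measured. The lists were written with earlier results of these data known, so their shares of called genes are descriptions only. Ribosome biogenesis, the assembly of ribosomes in the nucleolus from ribosomal RNA made by RNA polymerase I, lay above control throughout. All 50 listed genes were measured, 50 had a ratio above 0 and 0 were called. Their log2 ratios ran from 0.13 to 0.89 with a median of 0.46. Gar1, a protein of the snoRNP that guides pseudouridylation, went from 43.0 to 80.7 CPM. Utp20, a component of the small subunit processome, went from 71.7 to 130 CPM, 1.82-fold higher (1.73 to 1.91). Heatr1, another processome component, went from 91.0 to 160 CPM, 1.76-fold higher (1.68 to 1.84). In none of these 3 genes did the lanes of the libraries overlap. The list medians at 0.5, 1.5 and 5 h, each against the same control library, were 0.05, 0.46 and 0.46. Mdn1, which was called, was not on the list. The 30 measured genes of cytosolic ribosomal proteins, the parts that are assembled, had a median of -0.06 in exon reads with 21 below 0, although most of these genes have near-identical pseudogenes. Outside exons, a measure described below, 23 of them had enough reads, 18 above 0 and 5 below, with a median of 0.21. The ribosome biogenesis list also had a median of 0.21 there.

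The promoters of these genes were read for CACGTG, the E-box bound by MYC and related factors, because the members moved together. RefSeq promoters (GRCm38.p6, 250 bases before to 50 after the start) matched 44 of the 50 genes, and 9 of them held the motif, 20.5%. On the promoter level this was 19.1% of 47 promoters, beside 7.15% of all 32851 promoters in the table. These include promoters of genes that were not measured here, and no share over measured genes alone was taken. The median log2 ratio was 0.35 for members with the motif and 0.49 for members without it. The motif reads the same on both strands. Below are the stretch around the motif of Utp20, on the minus strand at chromosome 10, 88826765 to 88826789, where it starts 37 bases after the gene start, and 250 bases before the start of Nop2, on the plus strand at chromosome 6, 125131633 to 125131882, where it starts 60 bases before it. Nop2, a methyltransferase of ribosomal RNA, went from 68.1 to 109 CPM and was picked for its motif after its values were seen. Capitals mark the motif.
Utp20: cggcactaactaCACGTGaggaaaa
Nop2: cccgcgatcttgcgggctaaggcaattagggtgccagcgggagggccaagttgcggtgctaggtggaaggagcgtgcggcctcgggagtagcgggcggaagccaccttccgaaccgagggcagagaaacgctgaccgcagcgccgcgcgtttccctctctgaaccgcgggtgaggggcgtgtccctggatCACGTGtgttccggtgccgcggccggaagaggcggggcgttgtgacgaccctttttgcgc
These letters describe the sequence and show no binding.

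Synthesis of nucleotides, folates and polyamines, building blocks of growing cells, lay mostly above control in exon reads. All 25 listed genes were measured, 21 lay above 0 and 4 below, with 0 called and a median of 0.21. Outside exons 9 of the 25 lay above 0 and 16 below, with a median of -0.03. Scaled to unique exon reads that median was 0.15, so the direction outside exons depends on the scaling. Srm, spermidine synthase, went from 44.2 to 82.7 CPM, 1.87-fold higher (1.76 to 2.0). Shmt1, an enzyme of 1-carbon metabolism, went from 66.3 to 102 CPM, Gart, of purine synthesis, from 157 to 232 CPM, and Cad, of pyrimidine synthesis, from 187 to 272 CPM. The lanes of the libraries did not overlap in these 4 genes. Heat shock genes had a median of 0.28, with 10 of 13 measured members above 0 and 0 called. Hspd1 and Hspa9, chaperones of the mitochondrion, went from 330 to 497 and from 358 to 517 CPM. Hspa8, a cytosolic chaperone, went the other way, from 946 to 697 CPM, with 13.8% of reads unique.

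Sterol synthesis, the pathway from acetyl-CoA to cholesterol that SREBP2 controls, lay below control throughout. Of 26 listed genes 25 were found and 24 measured, and 24 of 24 lay below 0, from -0.92 to -0.04, with a median of -0.34 and 0 called. Mvd, which decarboxylates mevalonate pyrophosphate, went from 37.1 to 19.1 CPM and was 1.94-fold lower (1.76 to 2.14). Fdft1, squalene synthase, went from 109 to 63.1 CPM and was 1.73-fold lower (1.64 to 1.83). Mvk, mevalonate kinase, went from 41.8 to 24.6 CPM and was 1.70-fold lower (1.56 to 1.86). The lanes did not overlap in these 3 genes. The list stood above control earlier: its median at 1.5 h was 0.15, and Hmgcs1, HMG-CoA synthase, was at 334, 351, 441 and 189 CPM in the control library and after 0.5, 1.5 and 5 h. Fatty acid synthesis and uptake went both ways, with 5 of 19 measured members above 0 and a median of -0.18. Fasn, fatty acid synthase, went from 732 to 493 CPM and Gpam, the acyltransferase that starts triglyceride synthesis, from 260 to 397 CPM.

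For the sterol genes the promoters were searched on both strands for TCACNCCAC, a sterol regulatory element in which N is any base. It was found in 1 of 16 matched members. On the promoter level this was 5.26% of 19 promoters, beside 1.24% of all promoters in the table, which again include genes not measured here. That member was Hmgcs1, whose 250 bases before the start lie on the plus strand at chromosome 13, 119690101 to 119690350, with the motif in capitals 137 bases before the start.
Hmgcs1: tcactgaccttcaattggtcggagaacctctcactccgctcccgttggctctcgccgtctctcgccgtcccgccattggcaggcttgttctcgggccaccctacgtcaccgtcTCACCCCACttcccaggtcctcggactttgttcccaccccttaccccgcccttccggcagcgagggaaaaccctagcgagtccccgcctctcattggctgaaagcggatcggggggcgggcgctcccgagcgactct
For the 15 other matched members no match says only that these letters were not in the 300 bases read.

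Components of the preBCR and its proximal signalling lay mostly below control. All 26 listed genes were measured, 21 below 0 and 5 above, with 0 called and a median of -0.23. Vav2, a guanine nucleotide exchange factor below antigen receptors, went from 63.9 to 41.5 CPM and was 1.54-fold lower (1.44 to 1.65). Cd79b, a signalling chain, went from 383 to 282 CPM, and its partner Cd79a from 1783 to 1206 CPM. Vpreb3, a chain that associates with the heavy chain inside the cell, went from 204 to 147 CPM and was 1.39-fold lower (1.33 to 1.44). The heavy chain gene Ighm had 5997 CPM in the control library and 4793 CPM at 5 h, and the surrogate light chain genes Vpreb1 and Igll1 had 1551 and 1540 CPM in the control and 1312 and 1412 CPM at 5 h. Lanes did not overlap in Vav2, Cd79a, Cd79b or Vpreb3.

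Inhibitory receptors and their scaffolds had both directions. Of 33 listed genes 22 were measured, with 7 above 0 and 15 below, a median of -0.22, and Pdcd1 called higher and Bank1 lower. Of the 22, 21 could be called, and 9.52% of these were. Ptpn6, the phosphatase SHP-1 that such receptors recruit, went from 224 to 386 CPM, 1.73-fold higher (1.68 to 1.78). Ceacam1, an inhibitory adhesion receptor, went from 32.6 to 18.5 CPM and was 1.76-fold lower (1.59 to 1.95). Fcgr2b, the inhibitory Fc receptor of B cells, named after its values were seen, went from 111 to 188 CPM, 1.70-fold higher (1.63 to 1.77). Ptpn6 stood at 242 CPM at 0.5 h and 407 CPM at 1.5 h.

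Phosphoinositide enzymes had a median of -0.07, with 12 of 35 measured members above 0 and Pitpnm2 the 1 called. Plcg1, phospholipase C gamma 1, went from 349 to 232 CPM with 30.2% of reads unique, and Pik3r5, a regulatory subunit of PI3 kinase gamma, from 27.5 to 18.0 CPM. Itpkb, an inositol trisphosphate kinase, went from 74.1 to 110 CPM. Genes of calcium, calcineurin and NFAT had a median of 0.01, with 16 of 29 above 0 and 0 called. Itpr3, a calcium channel of the endoplasmic reticulum, went from 147 to 89.6 CPM and was 1.64-fold lower (1.57 to 1.72). NF-kB subunits and feedback genes had a median of -0.02 with 11 of 25 above 0 and 0 called. Icam1, an adhesion protein, went from 92.9 to 54.7 CPM and was 1.70-fold lower (1.6 to 1.8).

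Genes of the light chain loci and of recombination had 2 members called higher and 2 lower of 25 measured, with 17 below 0 and a median of -0.27. Of the 25, 24 could be called, and 16.7% of these were. The median was -0.14 in unique exon reads, and outside exons it was 0.05 over 19 members, or 0.24 scaled to unique exon reads. The called members were Irf4 and Ikzf3 above and Dntt and Spib below, and no light chain constant gene was among them. Igkc, the kappa constant gene, went from 11.3 to 7.90 CPM and was 1.43-fold lower (1.21 to 1.68), with lanes from 9.29 to 13.1 CPM in the control and from 7.08 to 9.61 CPM at 5 h that overlapped. Igkc was named after its values were seen. Rag2, the partner of Rag1, stood at 7.27 and 5.98 CPM, and its interval ran from 1.0- to 1.48-fold lower. Among B lineage transcription factors the median was -0.11 over 30 measured members of 38 listed, with 13 above 0, 2 called higher (Irf4, Ikzf3) and 2 lower (Spib, Gfi1b). Of the 30 factors, 29 could be called, and 13.8% of these were. Outside exons their median was 0.19 over 25 members, 16 above 0 and 9 below, or 0.38 scaled to unique exon reads. Ikzf1, the factor Ikaros, stood at 469 and 443 CPM, and Bcl6, a transcriptional repressor best known from germinal centre B cells, at 16.3 and 14.3 CPM.

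The IL-7 and STAT5 axis, which drives proliferation and survival of pre-B cells, had 3 of 24 measured members called lower, 0 higher, 17 below 0 and a median of -0.14. Of the 24, 23 could be called, and 13.0% of these were. The called genes were Pim2, a survival kinase, from 87.9 to 36.6 CPM, Bcl2l1, which encodes BCL-XL, from 95.5 to 43.7 CPM, and Gfi1b, a repressor, from 5.68 to 2.15 CPM. Il7r, the receptor chain, stood at 105 and 97.4 CPM. The call of Gfi1b ended with 5 CPM added (-0.58) and without lane 2 (-0.96).

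Cell cycle genes were described in 3 lists. In the G1 list 18 of 25 measured members lay below 0, with a median of -0.09 and Cdk6 the 1 called. E2f2, an activator of S phase genes, went from 152 to 100.4 CPM and was 1.51-fold lower (1.45 to 1.58), and Ccne2, cyclin E2, went from 29.0 to 19.7 CPM. In the list of DNA replication and S phase 34 of 39 lay below 0, with a median of -0.19 and 0 called. Chaf1b, a subunit of the chromatin assembly factor, went from 43.7 to 28.2 CPM and was 1.55-fold lower (1.43 to 1.69), and Pold1, the catalytic subunit of DNA polymerase delta, went from 289 to 189 CPM and was 1.53-fold lower (1.48 to 1.58). For G2 and mitosis the median was -0.06 and 20 of 29 lay below 0, and Ccnb2, cyclin B2, went from 169 to 115 CPM.

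Cytokines and ligands of the TNF family had 2 of 17 measured members called lower, Lta and Pgf, and 0 higher, with a median of -0.04. Of the 17, 12 could be called, and 16.7% of these were. Ccl3, a chemokine gene, went from 1.04 to 3.81 CPM, below the floor for a call. In surface markers of early B cell stages 12 of 20 measured members lay below 0, with Bst1 called lower. Cd24a, the heat-stable antigen, went from 313 to 558 CPM, 1.79-fold higher (1.74 to 1.83), and Cd22, an inhibitory lectin of mature B cells, from 22.8 to 13.3 CPM, 1.72-fold lower (1.52 to 1.94). Homing receptors and integrins had 9 of 18 measured members on each side of 0 and 0 called; the called integrin genes Itgav and Itgax are not on this list. Itgal, the LFA-1 alpha chain, went from 44.6 to 22.4 CPM and was 1.99-fold lower (1.82 to 2.18), and S1pr1, a receptor for exit from tissue, went from 7.36 to 3.55 CPM. Itga5, an alpha chain of the fibronectin receptor, had 7 control reads and 78 at 5 h, 12.5-fold higher (5.80 to 32.2), and at 2.54 CPM it lay below the floor.

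In the Wnt list 14 of 17 measured members of 34 listed lay above 0 in exon reads, with a median of 0.15 and Lgr5 the 1 called. Of the 17, 15 could be called, and 6.67% of these were. Outside exons 13 members had enough reads, 4 above 0 and 9 below, with a median of -0.17, or 0.02 scaled to unique exon reads. Lef1, a transcription factor of Wnt signalling and of pro-B cells, went from 383 to 672 CPM, and Fzd9, a Wnt receptor, from 1.65 to 3.35 CPM. Tcf7l2, a relative of LEF1, went from 43.0 to 32.7 CPM and was 1.32-fold lower (1.21 to 1.43). The TGF-beta and BMP list had 12 of 25 measured members above 0, a median of -0.01, Twsg1 called higher and Tgfb3 lower. Of the 25, 21 could be called, and 9.52% of these were. Bmpr2, a BMP receptor, and Eng, the co-receptor endoglin, were low, at 1.19 and 1.16 CPM in the control library and 2.37 and 0.390 CPM at 5 h.

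Genes of the interferon response and MHC class I lay mostly below control. Of 33 listed genes 23 were measured, 20 below 0 and 3 above, with a median of -0.36 and Gbp2, a guanylate-binding protein, the 1 called. Tap1, the peptide transporter of antigen presentation, went from 112 to 70.8 CPM and was 1.58-fold lower (1.50 to 1.67), and Psmb9, a subunit of the immunoproteasome, went from 50.2 to 32.8 CPM and was 1.53-fold lower (1.41 to 1.66). Nlrc5, the transactivator of MHC class I genes, went the other way, from 78.6 to 127 CPM, 1.61-fold higher (1.54 to 1.70). In the list of innate sensors 15 of 24 lay below 0, and Nlrp3, a sensor of the inflammasome, was the 1 called. Ddx58, the RNA sensor RIG-I, went from 30.9 to 18.4 CPM, and Tmem173, the sensor protein STING, from 83.3 to 52.9 CPM. The call of Gbp2 ended with 5 CPM added (-0.53), in total gene reads (-0.96) and without lane 3 (-0.98).

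The medians of further lists were as follows. Housekeeping genes had a median of -0.05, oxidative phosphorylation -0.05, FoxO targets -0.07, p53 targets -0.08, the BCL2 family -0.07, and ER chaperones 0.07. In glycolysis the median was -0.15 and 15 of 20 lay below 0, where Hk1, hexokinase 1, went from 204 to 131 CPM and Pfkp, a phosphofructokinase, from 271 to 381 CPM. Immediate early genes had a median of 0.03 at 5 h, after 0.76 at 0.5 h and 0.54 at 1.5 h, and Nr4a1, an orphan nuclear receptor, stood at 4.0, 29.6, 14.7 and 1.56 CPM in the control library and after 0.5, 1.5 and 5 h. In the clock list, with a median of 0.15, Nr1d2, a repressor of the circadian clock, went from 8.75 to 18.3 CPM, 2.09-fold higher (1.81 to 2.41) and at a log2 ratio of 0.98 below the limit. The call of Nr1d2 was made with 0.1 CPM added (1.06) and without lane 4 (1.0). Arntl, the clock activator BMAL1, went from 30.0 to 18.0 CPM. Targets of the oestrogen receptor had 8 measured members of 20 listed, 1 above 0 and 7 below, with 0 called and a median of -0.06. The plot of lists shows the spread of members behind 14 of these medians.

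**Figure D3:**
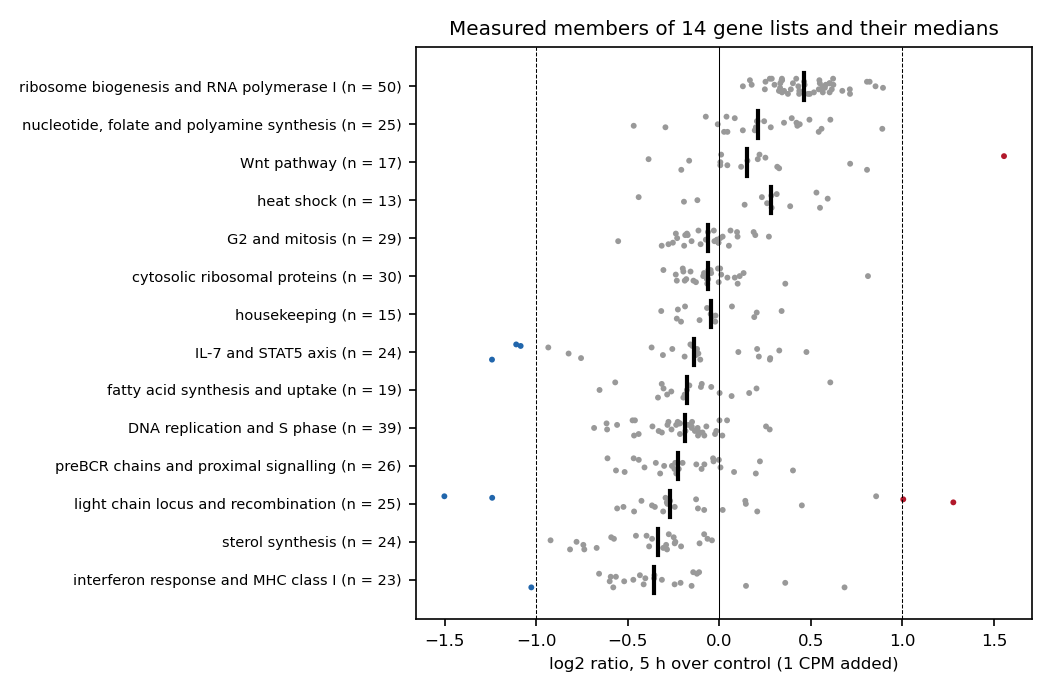
Log2 ratio of 5 h over control, with 1 CPM added, for each measured member (points) of 14 gene lists, with the list median as a black bar; red and blue points are called higher and lower, dashed lines mark 2-fold, and the vertical scatter within a list has no meaning. All 50 points of ribosome biogenesis lie above 0 and all 24 of sterol synthesis below it, without passing the 2-fold limits.

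Reads outside exons were used as a second measure, since they include reads of introns that are still present in unspliced RNA. They are unique gene reads minus unique exon reads, scaled to their own library total, for features with at least 50 such reads over both libraries. Over 9028 features their median log2 ratio was -0.01, with quartiles at -0.19 and 0.16. Of the 32 higher genes 26 had enough reads, and 26 of 26 were higher outside exons too, with 26 intervals above 1. Of the 38 lower genes 30 had enough reads, and 30 of 30 were lower, with 29 intervals below 1. Of these, 13 and 18 reached 2-fold, and the medians were 1.03 and -1.10, beside 1.14 and -1.15 in exon reads of the same genes. These genes were chosen by their exon ratio, which favours larger values there. Both measures come from the same libraries and share any difference between the samples these were made from. How many of the 9028 features had an interval apart from 1 was not counted. Scaled to unique exon reads instead, all ratios outside exons move up by the same step, to a median of 0.18 over all features, of 1.21 for the higher and of -0.91 for the lower genes.

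Single genes differed in how far both measures went together. Pitpnm2 was 3.96-fold higher in exon reads (3.84 to 4.08) and 4.52-fold outside exons (4.25 to 4.81). Ikzf3 was 2.02-fold higher in exon reads (1.94 to 2.10) and 2.42-fold outside them (2.29 to 2.56), and Ankrd28 2.14-fold (2.05 to 2.22) and 2.43-fold (2.27 to 2.60). In these 3 genes the value outside exons was the larger one and the counting intervals did not overlap. In 11 of the 26 higher genes the value outside exons was smaller with intervals apart. Mdn1 was 2.35-fold higher in exon reads and 1.35-fold outside (1.13 to 1.62), Zfp771 3.08-fold and 1.21-fold (1.07 to 1.38), and Cdk6 3.29-fold and 1.67-fold (1.56 to 1.8). Among the lower genes 5 of 30 had a smaller value outside exons with intervals apart, and 0 a larger one. Zcchc24 was 2.34-fold lower in exon reads (2.13 to 2.57) while its reads outside exons numbered 297 in the control and 298 at 5 h, 1.02-fold lower (0.862 to 1.2), which turns to a log2 ratio of 0.16 when scaled to unique exon reads. Nlrp3 had 88 control reads outside exons and 4 at 5 h, 22.4-fold lower (8.45 to 84.1).

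Cyclin D3, which partners CDK4 and CDK6 in dividing pre-B cells, showed the same kind of gap without being called. Ccnd3 went from 685 to 358 CPM and was 1.91-fold lower (1.87 to 1.96), with control lanes from 672 to 705 CPM and 5 h lanes from 352 to 366 CPM. Outside exons its reads numbered 2919 in the control and 2801 at 5 h, 1.06-fold lower (1.01 to 1.12), a log2 ratio of -0.09 that turns to 0.10 when scaled to unique exon reads. Blnk, level in exon reads, had 7268 reads outside exons in the control library and 5569 at 5 h. Its log2 ratio was -0.41 when scaled to reads outside exons, and scaling to unique exon reads moves it up as it does all features.

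The ribosome and sterol lists were also read in both measures. In ribosome biogenesis 43 members had enough reads outside exons, 33 above 0 and 10 below, with a median of 0.21 beside 0.46 in exon reads of the same genes, and 30 of the 43 intervals included 1. Gar1, 1.88-fold higher in exon reads, was at 0.901-fold outside exons (0.758 to 1.07), and Nolc1, a nucleolar chaperone of snoRNPs at 1.77-fold in exon reads, was at 1.14-fold (0.801 to 1.62). Utp20 was 1.52-fold higher outside exons (1.24 to 1.87). In sterol synthesis 23 members had enough reads, 23 below 0, with a median of -0.54 beside -0.31 in exon reads of the same genes. Fdft1 was 1.75-fold lower outside exons (1.56 to 1.96) and Mvk 1.68-fold (1.35 to 2.09), near their exon values of 1.73 and 1.70. Scaled to unique exon reads the medians outside exons were 0.40 and -0.35, near the exon medians of 0.46 and -0.31, so the gap between both measures depends on the scaling, and 38 of 43 and 1 of 23 members lay above 0. In the S phase list the median outside exons was -0.10 and became 0.08 under this scaling, so its direction outside exons depends on the scaling. The same holds, among other lists, for IL-7 and STAT5 (-0.11 and 0.07), G1 (-0.17 and 0.01), G2 and mitosis (-0.09 and 0.09) and glycolysis (-0.09 and 0.10). For the preBCR list the median outside exons of -0.27 became -0.08, with 11 of 26 members above 0.

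**Figure D4:**
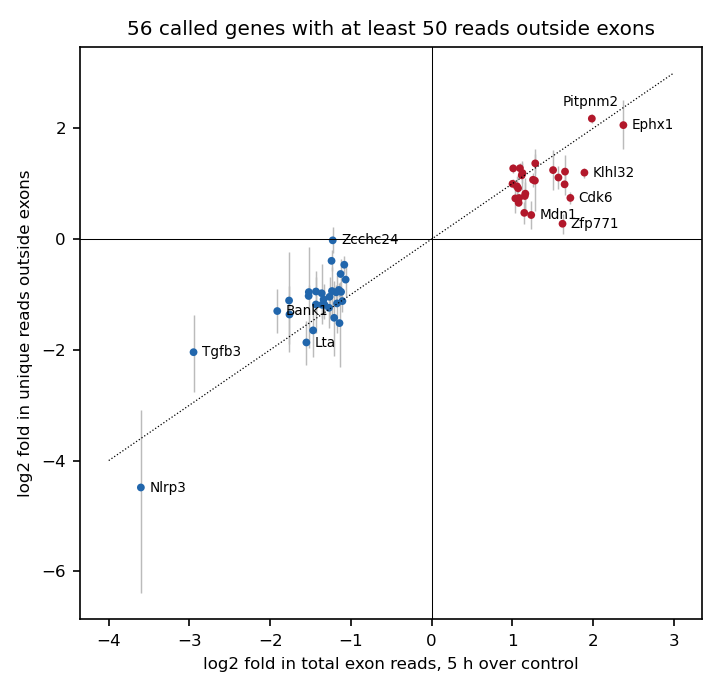
Log2 fold of 5 h over control in unique reads outside exons against that in total exon reads, for the 56 called genes with at least 50 reads outside exons; bars are exact 95% intervals for counting error, red points rose and blue points fell in exon reads, and the dotted line marks equal values. Most points follow the line, with Zcchc24 near 0 outside exons and Zfp771 and Mdn1 nearer to 0 there than in exon reads.

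The genes called at 5 h were also read at 0.5 and 1.5 h, where each time was compared with the same control library, so these comparisons share it. Their median log2 ratios at 0.5, 1.5 and 5 h were 0.22, 0.73 and 1.19 for the higher genes and -0.07, -0.49 and -1.13 for the lower ones. At 0.5 h, 19 of the 32 higher and 36 of the 38 lower genes were within 1.2-fold of control, and 2 and 0 were called in the same direction, where 0.284 and 0.021% of all tested features were called higher and lower. At 1.5 h, 29 and 32 were past 1.2-fold, and 8 and 3 were called, beside 0.641 and 0.21% of tested features. In 23 of the 32 and 35 of the 38 the call was made at 5 h and at neither other time. The largest ratio came at 5 h in 28 of the higher and 36 of the lower genes, and at 1.5 h in the others. The members were chosen at 5 h, which favours that time.

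Several genes show these courses. Ephx1 stood at 22.1, 19.7, 30.9 and 115 CPM in the control library and after 0.5, 1.5 and 5 h. Slc1a5 stood at 732, 765, 889 and 1547 CPM at the same times, and Mdn1 at 249, 302, 327 and 585 CPM. In these 3 genes the largest step lay between 1.5 and 5 h. Irf4 was highest at 1.5 h, with 142, 239, 445 and 347 CPM, as was Hivep2 with 119, 146, 358 and 259 CPM. Igf2bp3 was flat until 1.5 h, with 9.85, 10.2, 8.55 and 21.8 CPM. Among the lower genes Pgf was lowest at 1.5 h, with 11, 11.1, 2.57 and 3.97 CPM, as was B3gnt8 with 23.7, 18.4, 7.85 and 10.5 CPM. Lta stood at 62.7, 72.6, 57.7 and 21.4 CPM and Dntt, the terminal transferase, at 138, 121, 93.1 and 48.0 CPM.

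**Figure D5:**
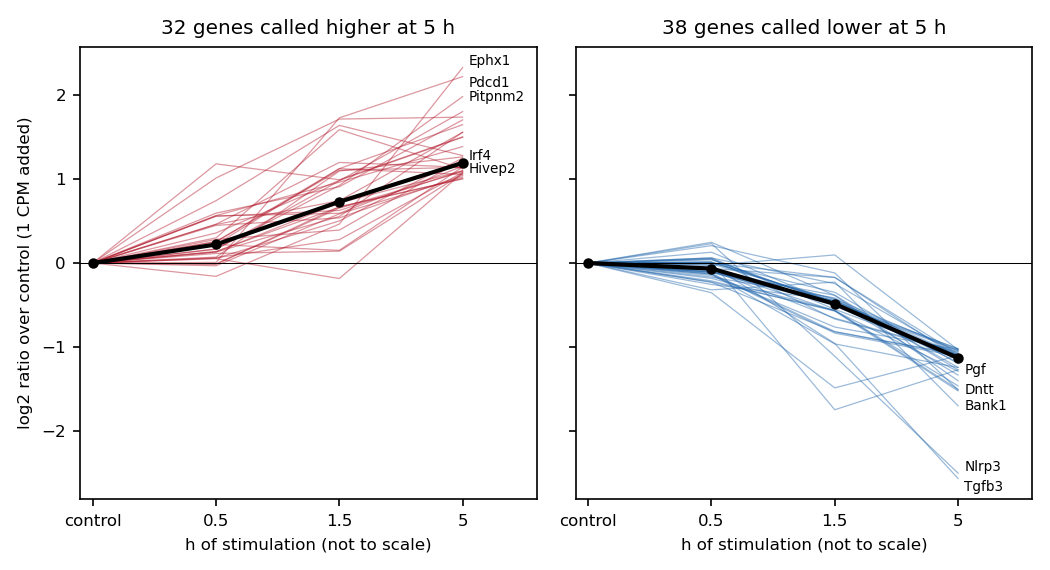
Log2 ratio over the shared control library, with 1 CPM added, at 0.5, 1.5 and 5 h (time axis not to scale) for the 32 genes called higher (left) and the 38 called lower (right) at 5 h; thin lines are genes and the black line is their median. The medians reach 1.19 and -1.13 at 5 h, and Irf4, Hivep2 and Pgf lie farther from 0 at 1.5 h than at 5 h.

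The few markers taken as defining other cell types, such as Cd3e, were at or near 0, apart from the integrin gene Itgam. Other members of their lists were not all near 0, as the summed levels show. In bulk RNA, fewer cells of a type and less RNA per cell cannot be told apart. Of 18 myeloid markers found, 4 were measured and 4 of 4 lay below 0, with Itgax called lower, and their summed level was 80.2 CPM in the control library and 43.3 CPM at 5 h. Most of that sum was Itgam, the integrin CD11b, at 69.0 and 35.9 CPM, while the defining markers Lyz2 and Mpo stood at 1.48 and 1.51 CPM in the control library and 1.07 and 1.01 CPM at 5 h, and Csf1r at 0.232 and 0.163 CPM. The part of these cells in the lower level of Nlrp3, Fgd2 or Itgax was not tested. T and NK markers had 4 measured of 20 found, with 2 above 0 and 2 below and summed levels of 78.3 and 85.3 CPM. All 4 had at least 5 CPM in either library. Erythroid and megakaryocyte markers had 3 measured of 16, with summed levels of 23.1 and 23.0 CPM, and stromal markers 2 measured of 19, Vim and Pecam1, which B lineage cells also express, with summed levels of 643 and 580 CPM.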

How the data were processed

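Per the labels' protocols, poly(A) RNA isolated with the TriFast reagent was made into libraries with a TruSeq or NEBNext kit and sequenced on an Illumina HiSeq. The submitters' processing notes name CASAVA 1.8.2 and mm10; how reads were aligned, counted and stranded is not given in the sources used here. Deposited tables hold, per the file headers, total and unique exon and gene read counts per lane, not normalized. The authors' signed fold change, used as a score in 1 alternative only, is of original values. Columns left unmatched to a sample numbered 0.

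Lanes were summed to 1 library per condition and scaled to CPM, and RPKM was computed from the deposited exon length. Calls, floors and intervals are defined where first used; no test across conditions was possible. Any called gene that is no predicted, clone or Rik name could be named, with up to 4 members of each list with the largest ratios, receptor chains, 15 regulators fixed by name and defining markers; others are said to be chosen after their values were seen. The members and the 42 lists (1073 genes, 1054 found) were chosen with earlier results of these data known. Alternatives were TMM factors (edgeR 4.0.16) and DESeq2 1.42.0 size factors, other pseudocounts, floors, fold limits and read classes, each lane left out, lanes as blocks, and the authors' fold change. Scripts (Python 3.11.15, pandas 2.3.3, numpy 2.4.6, scipy 1.17.1, matplotlib 3.10.9, R 4.3.3) were tested on simulated data. Promoters came from a RefSeq table.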

Additional observations from a re-analysis of the deposited data

How the results depend on the processing

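The counts of 32 higher and 38 lower genes became 20 and 16 with 5 CPM added in place of 1, 210 and 284 at a fold limit of 1.5, and 2 and 2 at a limit of 4. With a floor of 20 CPM 21 lower genes were called. The other settings kept both counts within 1.5 times. TMM factors gave 33 and 38, DESeq2 size factors 30 and 38, and unique exon reads 28 and 35. Adding 0.1 CPM gave 41 and 51, and a floor of 1 CPM gave 37 and 45. Scored by the deposited signed fold change, 39 and 55 genes were called. Similar counts need not hold the same genes: total gene reads gave 35 and 33, of which 26 and 27 were among the 32 and 38. Leaving out 1 lane from both libraries gave between 32 and 38 higher and between 35 and 42 lower genes. With the lane number as a replicate block, the mean of the ratios within each lane, 33 and 40 genes were called; lanes of equal number share only a number and not a sample. In all 12 alternatives for single genes 18 of the 32 higher and 11 of the 38 lower genes kept their call, and no gene reversed. The medians outside exons of 1.03 and -1.10 became 1.21 and -0.91 when scaled to unique exon reads. All 518 recomputed medians of 37 lists stayed within an interval around the main median, taken from the ranked ratios of the list's members. For some lists this interval was wide. The cytokine and ligand median of -0.04 became -0.27 over members with at least 5 CPM, still within it. The medians of immediate early genes (-0.014 to 0.021), of TGF-beta and BMP signalling (-0.047 to 0.0080) and of plasma cell and activation genes (-0.098 to 0.063) lay on both sides of 0 when lanes were left out. Counts set the width of the intervals, and 1 library per condition limits every result.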
